A study of Mus musculus with 12 samples.

Results

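Il17rd and 8 other feedback genes of the mitogen-activated protein kinase (MAPK) pathway were followed through mouse SCC35 tumour lines with and without Mif. The 9 genes, out of 32285 in the matrices, were Il17rd, the dual-specificity phosphatases Dusp4 and Dusp6, the Sprouty genes Spry1, Spry2 and Spry4, their relative Spred1, and the transcription factors Etv4 and Etv5. They were matched by symbol, and their unique molecular identifier (UMI) counts were summed per hashtag over non-immune cells: no UMI of Ptprc, Cd3e or Pecam1 and at most 1 of Tyrobp. These cells, called line cells below, numbered 72495 of the 100459 cells assigned to a single hashtag. The members were selected on the measured difference between Mif KO and control lines in these cells, led by Il17rd, so the KO against control levels of line cells are given as a description, without a test.

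MAPK signalling runs from receptor tyrosine kinases such as the fibroblast growth factor receptors through Ras, Raf and Mek to Erk, and Erk switches on several of its own inhibitors. Il17rd, also known as Sef, is a transmembrane protein of the interleukin 17 receptor family that restrains fibroblast growth factor signalling. Sprouty and Spred proteins act on the receptor-to-Raf part of the pathway, dual-specificity phosphatases remove the activating phosphates from Erk, and the Pea3-type factors Etv4 and Etv5 are transcriptional targets of the pathway. In melanoma, where Braf and Ras mutations often drive the pathway, the same genes are used as readouts of its activity.

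The study sorted live cells from dissociated tumours, tagged each sample with a hashtag antibody and profiled them by droplet 5′ single-cell RNA-seq; its title places the work in melanoma rejection. SCC35 Mif KO control 15 and SCC35 Mif KO control 18 are the control lines, and SCC35 Mif KO 19 and SCC35 Mif KO 24 the knockout lines. The sources used here do not give the host strain or age, the guide, how the control lines were made, or whether a line is 1 clone. The hashtag sheet gives days 0, 6, 10 and 16 for each line, and the days' meaning beyond the number is not given; days 6, 10 and 16 are called tumours here. Each line has a library of its own with 2 hashtags a day, and 2 mixed libraries hold 1 further hashtag for each line and tumour day; day 0 is only in the single-line libraries. The second mixed library also holds 3 hashtags named WT in the sheet (days 6, 10 and 16), which no sample label names and which entered no test. Since each group has 2 lines and no label says that the hashtags of a line came from separate animals, p-values below measure the spread between these hashtags.

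Of 47 hashtags, 45 were kept: 21 control, 21 KO and 3 WT, with 219 to 3460 line cells and 1956000 to 26290000 UMIs each. Median depth per line cell ran from 1998 to 5732 UMIs in line 24 and from 3842 to 17564 in the other 3 lines. Levels are a gene's share of the summed UMIs of the line cells, given as CPM. Mif was at 1747 to 3109 CPM in all 21 control hashtags and at 45.4 to 772 in all 21 KO hashtags. In line 19 tumours Mif was at 67.9 to 99.3 CPM in its own library and at 289 to 305 in the mixed library, and the part of this library difference in the results was not tested. Of the melanocyte markers, Tyr was at 0 in all 45 hashtags, Dct at 0 in 43 and Mlana at most 1.38 CPM, while Mitf ran from 6.65 to 23.6 CPM. The 6 fibroblast markers (Dpt, Pi16, Pdgfra, Clec3b, Col3a1, Dcn) summed to 9.10 to 130 CPM at day 0 and to 284 to 1124 in tumours, and the 6 macrophage markers to 5.97 to 40.6 and 11.4 to 308. Most of the fibroblast sum was Col3a1 and Dcn, with tumour medians of 297 and 135 CPM, and both were found in every day 0 hashtag. Dpt, Pi16 and Clec3b had tumour medians of 3.28, 0.556 and 0.511 CPM. Host markers were thus present in the tumour gate, but whether line cells make Col3a1 and Dcn was not tested. Pairs of libraries shared 802 to 1613 cell barcodes, 3.83% to 5.05% of the smaller library.

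The start regions of Il17rd and Spry1 are shown because the differences between lines and between days described below turn on these genes. Both are on the plus strand of the GRCm38.p6 build, are credited to RefSeq, and are printed 5′ to 3′ up to the base before the annotated gene (Il17rd at chr14:27038941-27107286, Spry1 at chr3:37639947-37644598). Capitals mark a GC box, GGGCGG on either strand. The Il17rd stretch is chr14:27038751-27038940, and the Spry1 stretch is chr3:37639697-37639946.
Il17rd: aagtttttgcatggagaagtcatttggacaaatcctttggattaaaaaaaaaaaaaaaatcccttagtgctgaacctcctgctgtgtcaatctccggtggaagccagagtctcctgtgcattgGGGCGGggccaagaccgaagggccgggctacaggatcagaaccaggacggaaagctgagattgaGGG
Spry1: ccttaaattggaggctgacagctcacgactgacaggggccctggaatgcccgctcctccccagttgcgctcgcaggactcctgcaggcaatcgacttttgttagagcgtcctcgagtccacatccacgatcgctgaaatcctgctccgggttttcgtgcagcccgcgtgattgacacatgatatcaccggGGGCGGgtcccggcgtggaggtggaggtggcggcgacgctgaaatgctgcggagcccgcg
The Il17rd stretch holds a whole GC box, and a second one starts on its last 3 bases and runs into the gene. RefSeq promoter entries of 250 bases matched 6 of the 9 members (Spred1, Spry1, Dusp6, Il17rd, Spry2, Etv5); Dusp4, Spry4 and Etv4 had none. GC boxes were in the windows of Il17rd (2), Spred1 (2), Spry1 (1) and the first Etv5 entry (3), and in 32.7% of 32851 promoters of the same length. The ETS motif CCGGAA, found in 12% of those promoters, AP-1 TGANTCA in 6.75% and the serum response factor motif in 0.149%, each searched on both strands, were in none of the members' windows. These are matches of letters in a short window only.

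Line 24 held the highest Il17rd levels. At day 0 it was at 34.4 and 36.0 CPM in line 24, at 3.26 and 7.74 in line 19, at 0.893 and 2.10 in line 15 and at 0.511 in the single hashtag of line 18, where it rests on 1 UMI. Line 24 tumours had 19.1 and 11.9 CPM at day 6, 23.6, 27.5 and 21.8 at day 10, and 18.2, 15.97 and 14.1 at day 16. All 10 line 24 hashtags were above all 32 hashtags of the other lines.

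Line 19 tumours held Il17rd at 2.31, 2.49 and 2.29 CPM at day 6, 2.70, 2.66 and 2.65 at day 10, and 1.85, 1.25 and 2.07 at day 16. Line 15 tumours ran from 0.521 to 1.90 CPM with a median of 1.26, and line 18 tumours from 0.365 to 2.69 with a median of 1.11. Thus 13 of the 21 KO hashtags were above every control hashtag: the 10 of line 24, both day 0 hashtags of line 19 and 1 of its day 10 tumours. The other 8 line 19 tumours lay within the control range of all days together, whose top, 2.69 CPM, was a line 18 hashtag of day 16. Set against control hashtags of the same day, line 19 was above all of them at days 0, 6 and 10. Its lowest values there were 3.26, 2.29 and 2.65 CPM, against control highs of 2.10, 1.90 and 1.26. At day 16 line 19 overlapped both control lines. In order of mean over hashtags the lines were 24 (22.2 ± 8.21 CPM, SD, n = 10), 19 (2.84 ± 1.70, n = 11), 15 (1.21 ± 0.496, n = 11) and 18 (1.09 ± 0.778, n = 10). With all days together, line 24 is clear of the rest, line 19 overlaps both control lines, and lines 15 and 18 do not differ beyond their spread. The WT tumours were at 1.44, 1.94 and 4.18 CPM, the last of them above every control tumour.

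**Figure D1:**
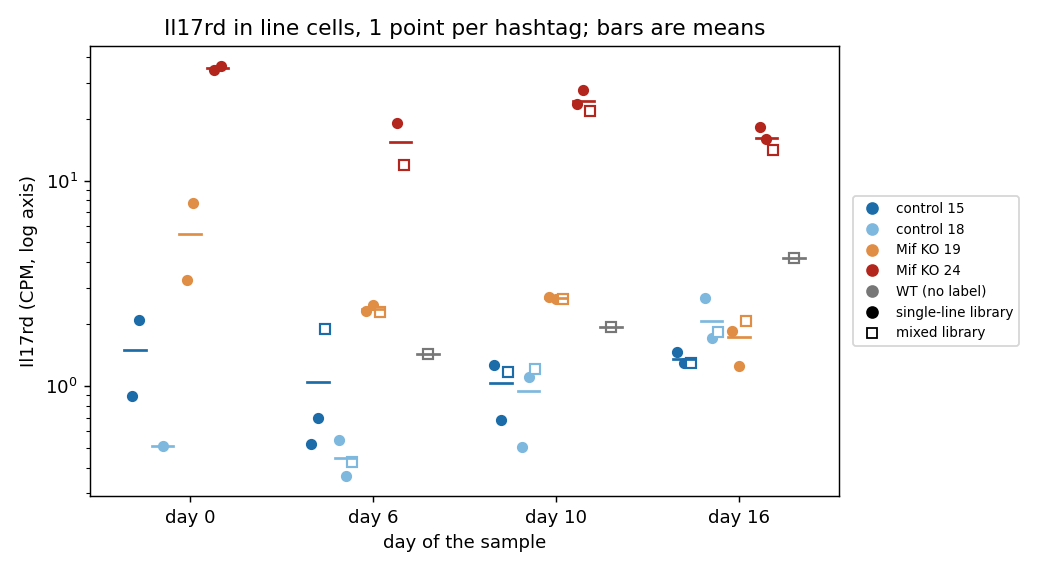
Il17rd in line cells (CPM, log axis) by day for each line, 1 point per hashtag; open squares are hashtags of the mixed libraries and bars are means. Line 24 lies between 11.9 and 36.0 CPM, above every hashtag of the other 3 lines, and the 3 WT tumours lie between 1.44 and 4.18.

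The line 24 tumours of the mixed library, at 11.9 to 21.8 CPM, overlapped those of its own library, at 15.97 to 27.5. After each cell was thinned to 2000 UMIs, which left 11169 of 14852 line 24 cells deep enough, the share of line 24 cells with an Il17rd UMI was 2.60% to 8.01% (median 4.32%). The unthinned share was 4.66% to 19.9%. Median thinned shares were 0.505% in line 19, 0.210% in lines 15 and 18, and 0.315% in WT. The myeloid cells from line 24 tumours, which carry Ptprc and Tyrobp, had a median thinned share of 0% (0% to 3.37%), of 0.724% at 1000 UMIs and of 1.40% unthinned. Il17rd was detected there, at a mean of 5.15 ± 4.41 CPM (SD, n = 8) in line 24 against 0.257 in line 15 and 0.250 in line 18. Line 24 also held the highest sums of several host markers in the line cell gate: in its tumours the 5 T cell markers summed to 23.1 to 56.1 CPM and the 4 NK cell markers to 18.8 to 77.6, against at most 11.7 and 10.7 in the other tumours. Its day 0 macrophage markers summed to 40.1 to 40.6 CPM against at most 16.9 in the other lines. With cells holding a UMI of host marker genes such as Lyz2, C1qa, Cd3d, Cd3g and Nkg7 left out, line 24 hashtags had Il17rd at 12.3 to 36.0 CPM and those of the other 3 lines at 0.251 to 7.81.

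In line cells the KO minus control log2 difference, adjusted for day, was 3.21 for Il17rd, 0.65 for Spry2, 0.56 for Etv5, 0.53 for Spry4, 0.51 for Dusp6, 0.49 for Spry1, 0.30 for Spred1, -0.20 for Dusp4 and -0.68 for Etv4. These contrasts chose the members, and 50.6% of 13248 genes had an edgeR adjusted p under 0.05 in the same fit. Within the mixed libraries, which hold KO and control tumours together, the differences were 2.08 for Il17rd, 0.54 for Spry1, 0.44 for Spry4, 0.40 for Dusp6, 0.31 for Etv5, 0.09 for Spry2, -0.003 for Dusp4, -0.06 for Spred1 and -0.35 for Etv4. Without line 24 the Il17rd difference was 1.31, and Dusp6 (-0.09), Spry2 (-0.19) and Spred1 (-0.09) were below 0, so that 4 of the 9 members were above 0 against 7 with both KO lines. Without line 15, Dusp4 was at 0.28. Line and group are nested, so a difference between groups and a difference between lines cannot be told apart.

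The members differed in how many single hashtags separated the groups. Of the 21 KO hashtags, 9 were above every control for Spry4 and Etv5, 8 for Dusp6 and Spry2, and 5 for Spred1. For Etv4, 10 of 21 KO hashtags were below every control. For Dusp6, Spry2, Spred1 and Etv5 the separated hashtags were line 24 hashtags. The WT tumours lay within the range of line 24 tumours for Spry2 (16.3 to 20.4 against 15.7 to 21.2 CPM) and Spred1 (40.3 to 43.1 against 39.0 to 48.8). They lay below it for Dusp6 (21.0 to 25.6 against 32.1 to 49.4) and Etv5 (12.9 to 13.6 against 14.5 to 26.2).

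Going from day 0 to tumours, 7 of the 9 members rose, Il17rd fell and Spry1 did not pass the test. The fit used the 30 hashtags of the single-line libraries, averaged over the 4 lines (edgeR quasi-likelihood test, Benjamini-Hochberg adjustment over 13300 genes). In it 55% of all genes were called and 27.5% were called higher, which is the background for the members' counts. Each line had 1 or 2 day 0 hashtags. The share of all genes with every tumour above every day 0 hashtag of its line was not computed.

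Etv4, a Pea3-type factor and Erk target, showed the same direction in every line. It was at 49.6 and 43.7 CPM at day 0 in line 15 and at 61.2 to 88.8 in tumours, and at 66.5 and 66.9 to 105 in line 18. In line 19 it was at 26.9 and 26.2 CPM at day 0 and at 53.2 to 87.8 in tumours. In line 24 it was at 24.5 and 25.4 CPM and at 34.8 to 49.1. Tumour ranges and means here and in the next paragraphs also cover the mixed libraries, which were not in the fit. In the single-line libraries Etv4 was at 85.1 to 105 CPM in line 18 tumours and at 53.2 to 65.2 in line 19 tumours. Every tumour was above every day 0 hashtag of its own line in the single-line libraries, and the log2 change was 0.88 ± 0.09 (SE; edgeR adjusted p 3.61e-09). Its relative Etv5 went from 14.4 ± 1.25 CPM (SD, n = 2) to 19.9 ± 4.10 (n = 8) in line 24 and from 6.03 ± 0.831 (n = 2) to 8.66 ± 0.961 (n = 9) in line 15. In line 19 its means were 8.98 and 10.9 CPM, and in line 18 11.3 and 12.0, with 3 single-line tumours above and 3 below day 0 (log2 change 0.09 ± 0.25, edgeR adjusted p 0.875). It rose by 0.48 ± 0.09 overall (edgeR adjusted p 7.21e-05).

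Of the phosphatases, Dusp4, which acts on nuclear Erk, rose by 0.70 ± 0.12 (edgeR adjusted p 1.27e-05). In line 15 it was at 40.8 and 41.5 CPM at day 0 and at 78.9 to 117 in tumours, with no overlap. In line 18 it was at 39.4 and then 37.6 to 62.5 CPM, which overlapped; in line 19 it was at 42.4 and 43.7 and then 58.3 to 82.3, and in line 24 at 45.8 and 47.5 and then 47.7 to 63.3. Dusp6, the cytoplasmic Erk phosphatase, was at 10.6 and 7.75 CPM at day 0 in line 15 and at 15.5 to 27.7 in its tumours. In line 24 Dusp6 was at 29.0 and 24.2 CPM at day 0 and at 32.1 to 49.4 in tumours, while in line 19 the day 0 hashtags (19.2 and 13.6 CPM) and the tumours (13.7 to 24.4) overlapped. Over the lines Dusp6 rose by 0.68 ± 0.13 (edgeR adjusted p 6.41e-05).

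Among the Sprouty genes, Spry2 rose by 0.95 ± 0.13 (edgeR adjusted p 4.77e-07). It was at 8.14 and 8.03 CPM at day 0 in line 24 and at 15.7 to 21.2 in tumours, and at 3.57 and 2.26 against 5.55 to 9.32 in line 15. Spry4 rose by 0.53 ± 0.13 (edgeR adjusted p 0.000991), led by line 15 with 4.82 ± 0.423 CPM (SD, n = 2) at day 0 and 9.50 ± 0.964 (n = 9) in tumours; in line 19 its means were 12.7 and 11.5 CPM. Without line 15 its change was 0.33 with an edgeR adjusted p of 0.0604. Spred1, the Sprouty relative that brings neurofibromin to Ras, rose by 0.46 ± 0.07 (edgeR adjusted p 3.79e-06), with every tumour above every day 0 hashtag of its line in the single-line libraries.

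Il17rd fell by 0.83 ± 0.23 on the log2 scale (edgeR adjusted p 0.00372), and all 6 line 19 tumours and all 5 line 24 tumours of the single-line libraries were below both of their day 0 hashtags. In line 15, 3 of 6 tumours were below both day 0 hashtags and none above both, and in line 18 4 tumours were above and 2 below the single day 0 hashtag. With day 6 alone set against day 0, Spry1 fell by 1.03 on the log2 scale (edgeR adjusted p 1.12e-05) and Spry4 did not pass (0.46, edgeR adjusted p 0.077).

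The summed fibroblast markers were higher in tumours than at day 0 in every line, as given above. After cells with a UMI of any of a set of host marker genes were left out (among them Dpt, Pi16, Clec3b, Krt5, Krt14, Cdh5, Kdr, Rgs5, Lyz2 and C1qa), the log2 changes were 0.95 for Etv4, 0.96 for Spry2, 0.79 for Dusp4, 0.64 for Dusp6, 0.58 for Spry4, 0.55 for Etv5, 0.42 for Spred1 and -0.89 for Il17rd, each still called by edgeR. Spry1, at -0.12, was not called, and Spry4 in line 19 alone was at -0.075 (edgeR adjusted p = 0.797). Col3a1 and Dcn were not in that set, and the markers' part in the remaining values was not tested.

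Line by line, in 1 fit with 4 contrasts, 19 of 36 member changes were called, 18 of them higher. Line 15 had 7 members higher (39.4% of all genes called), line 19 had 5 higher and Il17rd lower (36.6%), line 24 had 5 higher (37.6%) and line 18, with 1 day 0 hashtag, had only Spred1 higher (0.83 ± 0.23, edgeR adjusted p 0.0291; 6.57% of genes called). The largest called changes were Etv4 in line 19 (1.37 ± 0.14, edgeR adjusted p 1.65e-08) and Dusp4 in line 15 (1.30 ± 0.16, edgeR adjusted p 1.09e-06). Il17rd in line 19 fell by 1.28 ± 0.41 on the log2 scale (edgeR adjusted p 0.0157), and in line 24 the change was -0.63 ± 0.35 (edgeR adjusted p 0.16). With a line left out, line 19 had 4 to 6 member calls and line 18 had 0 to 2. In line 19 Etv5 (0.40, edgeR adjusted p 0.0624) was not called without line 15, nor Spry2 (0.53, 0.0591) without line 24. Without line 24 the line 19 Il17rd value was -1.23 (edgeR adjusted p 0.0505), and the Spred1 call in line 18 was lost without line 19 (0.81, 0.0593), without line 24 (0.77, 0.0627) and with DESeq2 (0.73, 0.0706). With a separate term for each line and day, an alternative chosen after seeing the data, Il17rd (-0.70, edgeR adjusted p 0.00511) and Spry1 (-0.77, 0.000411) fell in line 24.

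**Figure D2:**
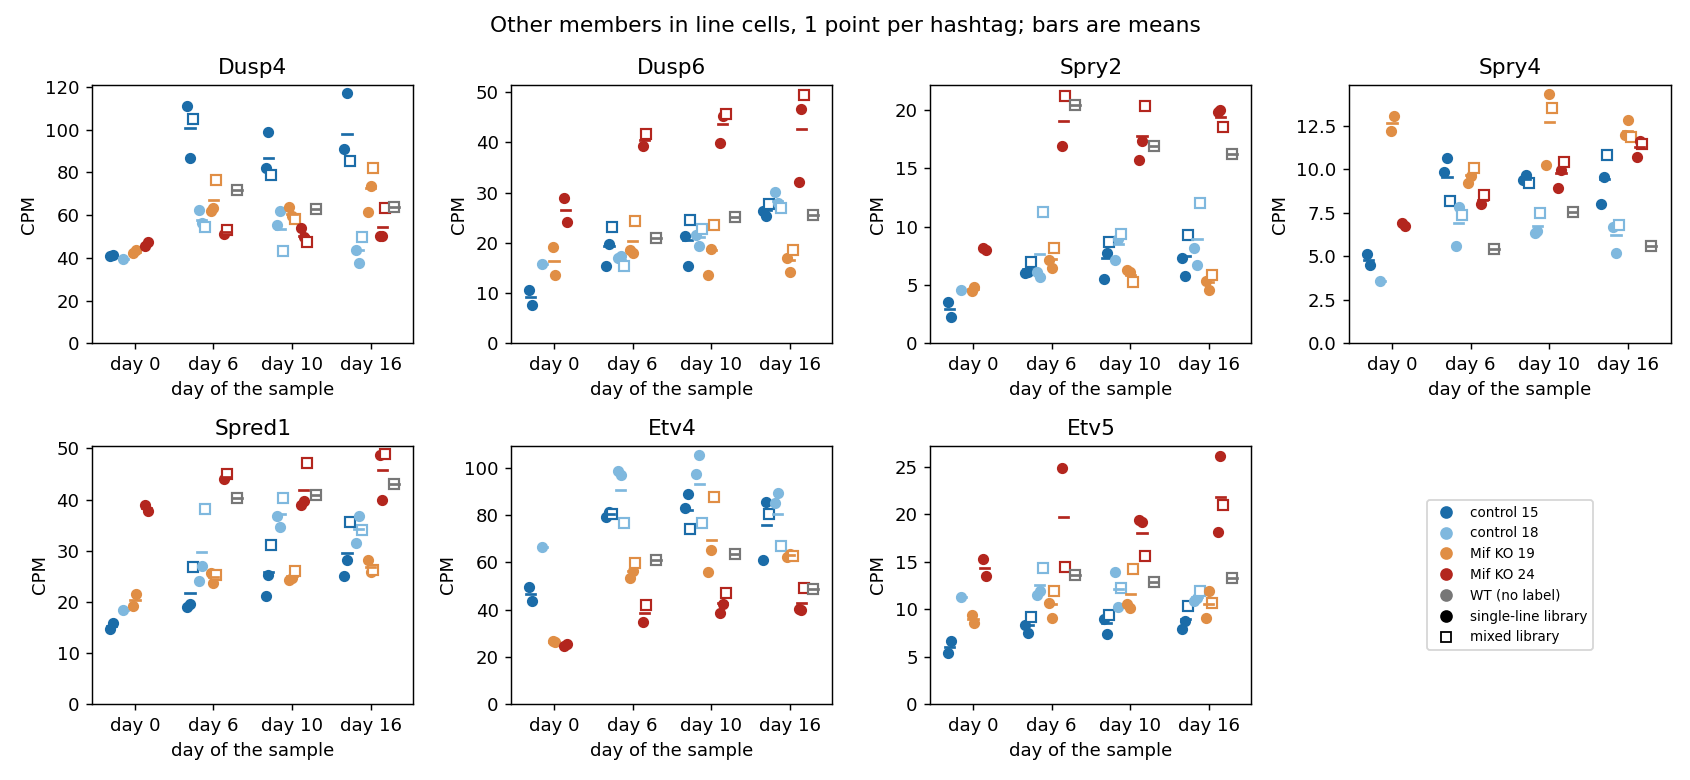
Levels of Dusp4, Dusp6, Spry2, Spry4, Spred1, Etv4 and Etv5 in line cells (CPM) by day and line, 1 point per hashtag with bars at the means. Line 24 tumours reach 32.1 to 49.4 CPM for Dusp6, and line 15 tumours 78.9 to 117 CPM for Dusp4.

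The test of the difference between KO and control lines in the change from day 0 called 28.8% of 14617 genes, with a median difference over all genes of -0.17. Of the members only Etv4 was called: its rise was 0.37 ± 0.14 larger in the KO lines (edgeR adjusted p 0.0427), with lower day 0 levels in the KO lines (24.5 to 26.9 CPM) than in the control lines (43.7 to 66.5). The differences of the others, none called (edgeR adjusted p of 0.0761 or more), were -1.29 for Il17rd, -0.81 for Spry1, -0.61 for Spry4, -0.38 for Dusp4, -0.37 for Spred1, -0.33 for Dusp6, 0.002 for Spry2 and 0.25 for Etv5. The Etv4 call did not hold without line 15 (0.49, edgeR adjusted p 0.052), without line 18 (0.25, 0.206) or without line 19 (0.07, 0.841), nor with the gate on Ptprc alone (0.38, 0.061) or without a filter on low counts (0.40, 0.0535). Without line 18, Dusp4 was called at -0.79 (edgeR adjusted p 0.000202) and Spry4 at -0.68 (0.0217), and without line 24 Spry4 at -0.88 (0.0265).

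Spry1, which restrains signalling at the receptor and Ras level, differed between the tumour days. At day 6 it was at 36.0, 34.4 and 36.4 CPM in line 15, 39.1, 24.0 and 15.7 in line 18, 62.4, 71.6 and 69.5 in line 19, and 116 and 75.9 in line 24. All of these were below the day 0 hashtags of their line, which were at 86.3 and 87.5 (line 15), 81.8 (line 18), 141 and 133 (line 19) and 218 and 217 CPM (line 24).

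All day 6 control hashtags were below all day 6 KO hashtags. KO against control in line cells is the contrast that chose the members, and the share of all genes so separated was not computed. At day 16 the order was another, with line 24 below every hashtag of the other lines. Line 15 was at 188, 212 and 178 CPM, line 18 at 226, 253 and 262, line 19 at 193, 117 and 171, and line 24 at 76.0, 86.4 and 84.4. At day 10 the ranges were 111 to 115, 91.5 to 119, 160 to 172 and 161 to 191 CPM in that order, so line 24 had its highest tumour values at day 10. The WT tumours were at 48.1, 96.7 and 178 CPM on days 6, 10 and 16.

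**Figure D3:**
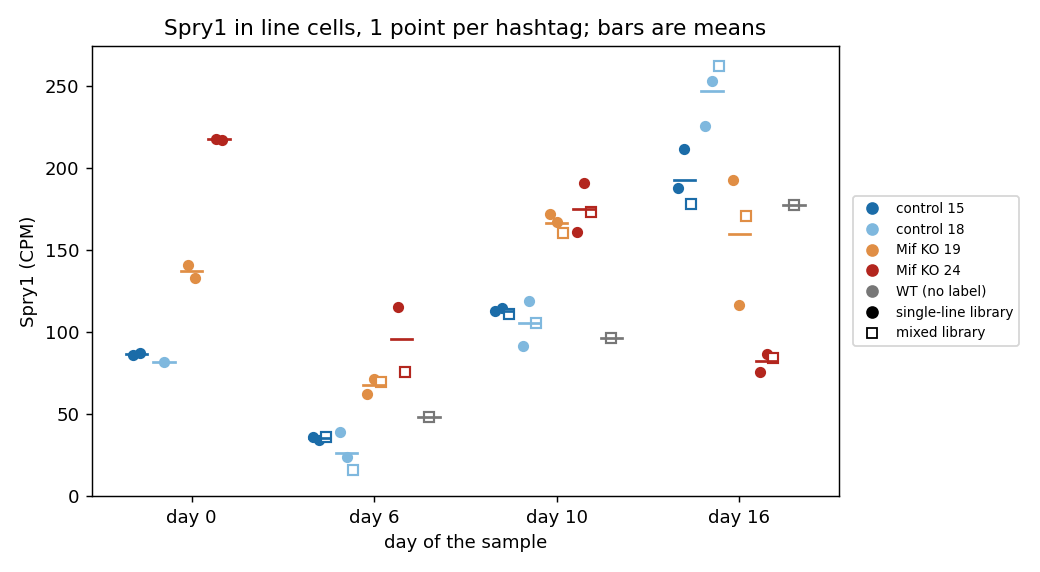
Spry1 in line cells (CPM) by day for each line, 1 point per hashtag; open squares are mixed libraries and bars are means. Control lines climb from 15.7 to 39.1 CPM at day 6 to 178 to 262 at day 16, while line 24 is at 76.0 to 86.4 at day 16.

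Day 16 against day 6 over the 35 tumour hashtags of the 4 lines, with library and line as strata, called 38.6% of 14581 genes. Spry1 rose by 1.65 ± 0.24 (edgeR adjusted p 8e-06) and Spred1 by 0.21 ± 0.05 (edgeR adjusted p 0.00231). In the mixed libraries alone the Spry1 change was 1.44 with an edgeR adjusted p of 0.0959, and without line 15 the Spred1 change was 0.15 (edgeR adjusted p 0.0839). The other 7 did not pass (edgeR adjusted p of 0.105 or more), at 0.27 for Il17rd, 0.20 for Dusp6, 0.09 for Spry4, 0.003 for Etv5, -0.03 for Etv4, -0.07 for Spry2 and -0.12 for Dusp4; without line 19 Dusp6 did (0.41, edgeR adjusted p 0.00242).

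By line, Spry1 rose by 2.36 ± 0.19 in line 15 (edgeR adjusted p 2.01e-08), by 2.98 ± 0.21 in line 18 (2.38e-09) and by 1.21 ± 0.18 in line 19 (3.77e-05); in line 24 the change was -0.17 ± 0.22 (0.784). The share of all genes called was 23.5%, 26.2%, 24.1% and 1.6% in lines 15, 18, 19 and 24. Line 18 had 3 further calls: Il17rd rose by 2.23 ± 0.38 (edgeR adjusted p 0.000191), from 0.365 to 0.547 CPM at day 6 (7 or 8 UMIs a hashtag) to 1.71 to 2.69 at day 16 (22 to 27 UMIs), Dusp6 rose by 0.68 ± 0.15 (0.0022) and Dusp4 fell by 0.72 ± 0.15 (0.00151). In line 15 Dusp6 (0.40, edgeR adjusted p 0.0355) and Spred1 (0.38, 0.00474) rose, and in line 19 Spry2 fell by 0.48 on the log2 scale (edgeR adjusted p 0.029). Under the other hashtag call the line 15 Dusp6 (0.26, edgeR adjusted p 0.202) and line 19 Spry2 (-0.41, 0.0511) calls were lost.

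**Figure D4:**
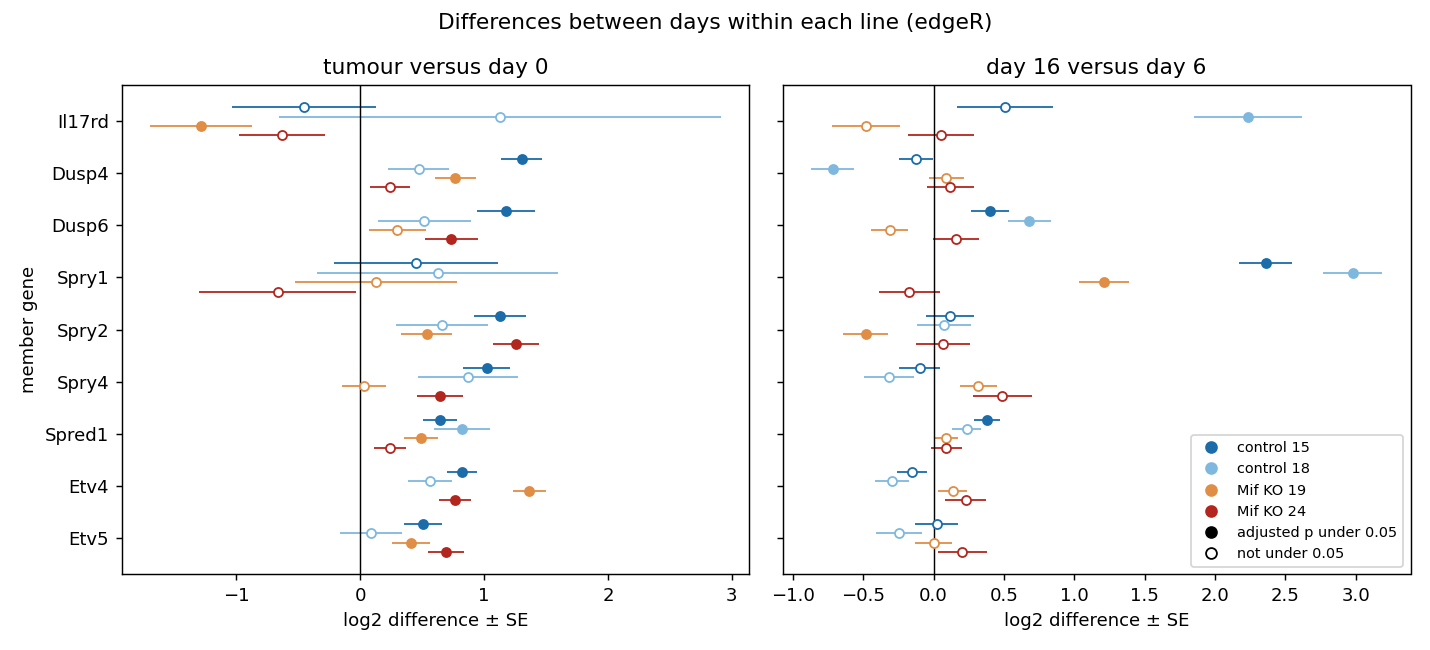
Log2 change with its standard error for each member and line, tumour against day 0 and day 16 against day 6; filled points have an edgeR adjusted p under 0.05. Spry1 from day 6 to day 16 is at 2.36, 2.98 and 1.21 in lines 15, 18 and 19 and at -0.17 in line 24.

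The difference between KO and control lines in the change from day 6 to day 16 was tested after the levels had been seen, and 14.2% of 14581 genes were called. Host markers in the gate also moved between these days, and their part was not tested. The median fibroblast sum went from 494 to 445 CPM in line 15 and from 357 to 517 in line 18. It went from 358 to 393 in line 19 and from 938 to 447 in line 24. The median macrophage sum went from 33.0 to 134 CPM in line 18 and fell in the other lines. Spry1 changed less in the KO lines, by -2.15 ± 0.20 (edgeR adjusted p 3.89e-07), and the value stayed between -1.45 and -2.83 and called with any 1 line left out. Il17rd differed by -1.59 ± 0.31 (edgeR adjusted p 0.00112), but without line 18 by -0.72 (0.283). Dusp6 differed by -0.62 ± 0.15 (edgeR adjusted p 0.00592). Spry4 (0.61 ± 0.17, edgeR adjusted p 0.0165), Dusp4 (0.53 ± 0.14, 0.0151) and Etv4 (0.41 ± 0.12, 0.026) differed the other way. Spry2 (-0.31), Spred1 (-0.22) and Etv5 (0.21) were not called (edgeR adjusted p of 0.152 or more). Without line 18 Spry1 alone was called, without line 19 Spry1 and Il17rd, and without line 24 all but Spry4 (0.53, edgeR adjusted p 0.0652) and Etv4 (0.37, 0.0961); with another way of assigning hashtags, Dusp6 (-0.45, 0.0663) and Etv4 (0.20, 0.309) were not called.

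Other genes of the pathway were read from 5 lists, chosen with earlier results of these data known. From day 0 to tumours, 16 of 18 tested output genes rose and 1 fell (Lif 3.11, Egr1 2.87; Myc -0.40), 12 of 18 receptors and ligands rose and 1 fell (the ligand genes Ereg, 4.24 ± 0.65, from 0.162 to 1.22 CPM at day 0, and Fgf7, 3.58 ± 0.56, from 0 to 0.482 CPM at day 0; Erbb2 -0.43), and 12 of 17 other inhibitors rose and 1 fell (the phosphatases Dusp2 3.17 and Dusp5 2.48; Dusp3 -0.31). The core kinases and adaptors went 4 up and 3 down of 16 (Nras 0.27, Grb2 0.24, Ptpn11 -0.24, Sos1 -0.19). Both tested Il17 receptor genes fell (Il17ra -0.60, Il17rc -0.23), in the same direction as Il17rd. The medians were 0.77, 1.08, 0.52, 0.02 and -0.415 against -0.02 over all genes, of which 55% were called.

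From day 6 to day 16, beside 38.6% of all genes called, 3 receptors and ligands rose and 6 fell of 23 tested, with Fgfr1, a receptor that Il17rd and the Sprouty proteins restrain, at 1.25 ± 0.21, Pdgfra at 0.35, Egfr at -1.30 ± 0.26 and Fgfr3 at -1.11. Of 16 core genes 3 rose (the kinase genes Mapk3 0.39 and Braf 0.22) and 4 fell (the Ras genes Hras -0.35 and Nras -0.20), and neither tested Il17 receptor gene passed. Of 17 other inhibitors 5 rose (Dusp1 0.64, Spred3 0.315) and 5 fell (Dusp9 -0.80, Dusp5 -0.66), and of 19 outputs 4 rose (Fos 0.83, Egr1 0.75) and 3 fell (Epha2 -0.31, Fosl1 -0.31). Mean Fgfr1 went from 15.3 CPM at day 6 to 55.0 at day 16 in line 15, from 9.39 to 68.8 in line 18, from 11.2 to 11.7 in line 19 and from 55.4 to 90.0 in line 24.

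The KO minus control difference of the change from day 6 to day 16 was called in both directions in 4 of the lists, beside 14.2% of all genes. Of the receptors and ligands 2 were higher (Nrg1 0.67, Pdgfa 0.316) and 3 lower (Fgfr1 -1.71 ± 0.23, Pdgfrb -1.51), and of the core genes 5 were higher (Nras 0.47, Map2k1 0.40) and 1 lower (Shc1 -0.41). Of the other inhibitors 3 were higher (Dusp5 1.07 ± 0.20, Dusp3 0.32) and 3 lower (Dusp1 -1.04 ± 0.16, Errfi1 -0.635), and of the outputs 5 were higher (the urokinase receptor gene Plaur 0.995 ± 0.14, Kcnn4 0.75) and 4 lower (Fos -1.36 ± 0.21, Egr1 -1.33 ± 0.22). In the KO minus control difference of the change from day 0, beside 28.8% of all genes, 1 of 22 receptors and ligands was higher (Hbegf 1.39) and 5 were lower (Fgf7 -6.17, Pdgfrb -6.07). Fgf7 and Pdgfrb were at 0 CPM in the single day 0 hashtag of line 18, so their fitted differences, and the Fgf7 change above, depend on the prior count. Of the core genes 2 were higher (Hras 0.62, Ptpn11 0.27) and 4 lower (Mapk3 -0.87, Araf -0.55), of the other inhibitors 1 was higher (Dusp14 1.66), and of the outputs 5 were higher (Phlda1 0.98, Myc 0.95) and 1 lower (Etv1 -1.09). No Il17 receptor gene was called in either difference by edgeR.

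Outside the line cells, Dusp4 differed between groups in the 8365 myeloid cells (Ptprc, at least 2 UMIs of Tyrobp, no Cd3e or Pecam1) of 35 tumour hashtags. The gate is called myeloid here but set no limit on NK cell markers, so NK cells were not kept out of it. The Dusp4 level was 28.1 to 102 CPM in line 15 (median 74.5) and 26.5 to 77.0 in line 18 (55.1). In line 19 it was 11.9 to 54.1 (20.2) and in line 24 11.9 to 24.6 (19.8). Of 17 KO hashtags 14 were below every control, and 11 of 18 control hashtags were above every KO hashtag. The KO minus control log2 difference was -1.40 ± 0.19 (edgeR adjusted p 6.56e-07; 41% of 7656 genes called). With 1 sum per line it was -1.47 (edgeR adjusted p 0.0118), in the mixed libraries alone -1.07 (0.03), and under the other hashtag call -0.88 (2.09e-05). The WT tumours, whose Mif was at 2215 to 2590 CPM in line cells, were at 18.9, 22.6 and 24.7 CPM, below every control hashtag.

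**Figure D5:**
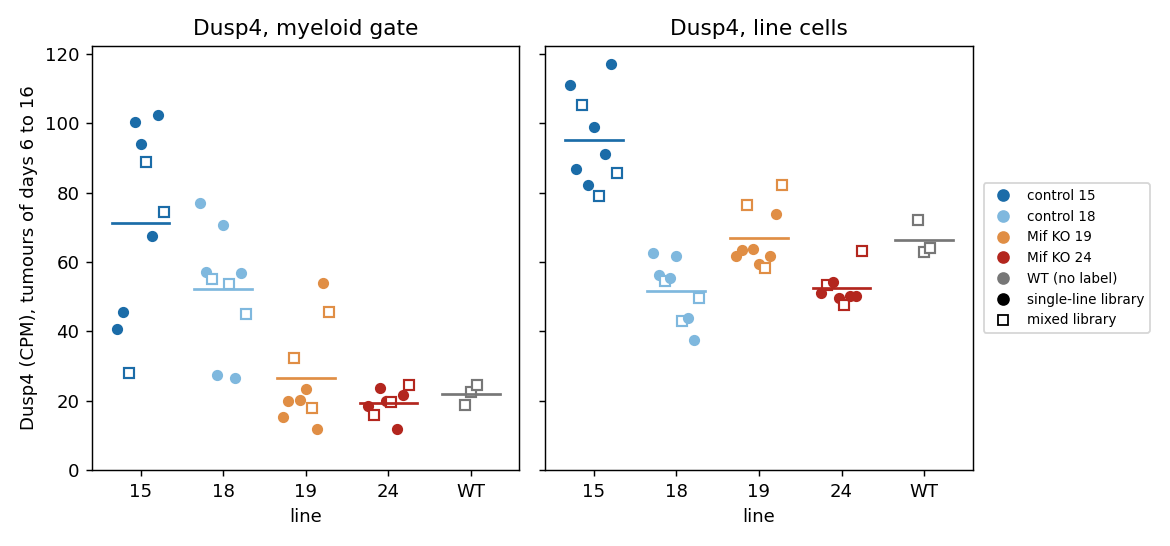
Dusp4 (CPM) per tumour hashtag in the myeloid gate and in line cells, by line. In the myeloid gate lines 15 and 18 have medians of 74.5 and 55.1 CPM and lines 19 and 24 of 20.2 and 19.8, while line cells range from 37.6 to 117.

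In myeloid cells thinned to 2000 UMIs, the median share with a Dusp4 UMI was 8.28% and 7.69% in lines 15 and 18, 3.62% and 2.68% in lines 19 and 24, and 3.86% in WT. The make-up of the gate moved with the groups: the 4 dendritic cell markers summed to a median of 51.8 CPM in control and 133 in KO hashtags, the 4 NK cell markers to 105 and 639, the 5 T cell markers to 5.74 and 36.9, the 4 mural markers to 10.7 and 0.697, the 7 melanocytic markers to 37.3 and 19.1, and the 6 macrophage markers to 9649 and 9164. Their part in the Dusp4 difference was not tested, and fewer cells of a type and less RNA per cell cannot be told apart in a sum. Of the other members tested, Dusp6 (-0.175), Spry1 (-0.24), Spred1 (-0.25), Etv4 (-0.095) and Etv5 (-0.093) did not pass, and Il17rd (53 UMIs), Spry2 and Spry4 were below the filter. Spry2 was at a mean of 11.6 ± 6.99 CPM (SD) in the KO and 4.75 ± 3.31 in the control hashtags, Il17rd at 3.06 ± 3.68 and 0.253 ± 0.457, and Spry4 at 3.65 ± 2.95 and 3.10 ± 2.76. With no filter, edgeR also called Il17rd (log2 difference 3.25) and Spry2 (1.25) higher in KO, beside Dusp4. Both genes were chosen on the KO against control difference in line cells of the same tumours. The median Il17rd level of the control hashtags in this gate was 0 CPM. These unfiltered calls are therefore no separate test of Il17rd and Spry2. Without line 24 neither was called, with edgeR adjusted p-values of 0.161 for Il17rd and 0.0804 for Spry2. What RNA from line cells adds to these myeloid values was not tested. Pooled over all tumour hashtags, Dusp4 in the myeloid gate was at 66.4% of its line cell level, Etv4 at 23.5% and Spry1 at 23.8%, beside 16.5% for the collagen gene Col1a1, while Dusp6 was at 152% and Spred1 at 138%. Dusp4 was also at 84.3 ± 15.3 CPM (SD over 6 libraries) in the 3878 cells of the T gate (Cd3e, at most 1 UMI of Tyrobp, no Pecam1). That gate did not require Ptprc. Pooled over all its hashtags, Col1a1 was at 44.3% and Il17rd at 97.7% of the line cell level. What RNA from line cells adds to its Dusp4 level was not tested.

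For Spry2 all 3 WT tumours were above every control tumour, at 20.4, 16.9 and 16.3 CPM against at most 12.1. Spred1 was at 40.3 to 43.1 CPM in WT and at most 40.2 in the control tumours, a gap smaller than the SD of the WT tumours (1.49). For Etv4, 2 of 3 WT tumours were below every control tumour, at 48.8 and 60.97 CPM against at least 61.2. The gap of the second is smaller than the SD of the WT tumours (7.88).

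Within line 24 cells thinned to 2000 UMIs, those with 2 or more UMIs of the proteoglycan gene Ogn were set against those with none. The cells with Ogn had more Il17rd (36.5 against 20.7 CPM, higher in 9 of 10 hashtags) and more Spry1 (210 against 118, 10 of 10). They had less Etv4 (22.2 against 42.7, higher in 1 of 10). Lines 19 and 18 and WT had the same order for Spry1, at 301 against 127 CPM in line 19, 360 against 183 in line 18 and 226 against 102 in WT, and for Etv4, at 15.0 against 53.0, 37.2 against 84.1 and 21.6 against 54.9. For Il17rd the values were 8.44 against 3.12 CPM in line 19 (higher in 6 of 10 hashtags), 5.54 against 1.69 in WT (2 of 3) and, in the reverse order, 1.08 against 1.85 in line 18 (2 of 6), from 18, 6 and 2 UMIs in the cells with Ogn. Line 15 had 1 hashtag with enough such cells. Other markers also went with these genes in line 24. Cells with Top2a had more Etv4 (48.15 against 34.9 CPM, higher in 8 of 10 hashtags) and less Spry1 (104 against 160, higher in 1 of 10). Their Il17rd was at 19.6 against 25.1 CPM (higher in 3 of 10). Cells with Isg15 had less Etv4 (28.6 against 42.9, higher in 1 of 10), with Spry1 at 168 against 142 (7 of 10) and Il17rd at 26.2 against 25.6 (6 of 10). Over the 42 hashtags of the 4 lines, the genes whose log2 levels followed Il17rd most closely were Tanc2 (Pearson r 0.962), Insyn1 (0.952), Palld (0.952), Atp11a (0.941) and Smad3 (0.935), all highest in line 24. These hashtags share libraries and lines. After subtracting each library, line and day mean, over 28 hashtags, the closest genes were others: Cplane2 (0.854), Has2os (0.838), Lrp4 (0.814), Fam81a (0.813) and Arrdc4 (0.805). These 28 hashtags are pairs of the same library, line and day, so the values of a pair mirror each other and are not independent. Cplane2, Has2os and Fam81a were near the floor, with line means of 0.0481 to 1.71 in log2 of CPM plus 1. The genes are the highest of 13248, and how high such an r runs by chance was not tested. Within a line, Il17rd and Spry1 had r of 0.278, 0.852, 0.077 and 0.928 over the 11, 10, 11 and 10 hashtags of lines 15, 18, 19 and 24. Dusp6 was at 0.911 in line 18, Dusp4 and Etv4 were at -0.748 and -0.716 in line 19, and in line 24 the 7 members other than Spry1 ran from -0.831 to -0.393. Day and library were not removed from these within-line r. They therefore also hold the changes between days given above, and whether the genes vary together within a day was not tested.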

How the data were processed

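The deposited matrices hold unnormalized counts of UMIs and hashtags for 6 libraries, made by the authors with Cell Ranger 6.0.0 on mm10 per the submitters' processing notes, which name no annotation release. Cells with 300 or more genes and no more than 15% mitochondrial UMIs were assigned to hashtags with HTODemux (Seurat 5.3.0, quantile 0.99); between-hashtag doublets (17.94% to 30.93% of cells per library) were left out, and doublets within a hashtag remain. Hashtags needed 0.1% of their library's hashtag counts and 20 gated cells. The deposited counts were summed per hashtag and tested with edgeR 4.0.16 (quasi-likelihood test, TMM, filterByExpr, Benjamini-Hochberg adjustment over all genes tested, threshold 0.05); DESeq2 1.42.0 was an alternative. The host comparison used cells of the same tumours outside the line gate.

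The members, the pathway lists and the marker lists were chosen with earlier results of these data known. The rule for named genes was the 9 members and, per list, the 2 called genes with the largest change each way. List genes are given for the changes over all lines and their KO minus control differences, and not by line, for KO against control or in the myeloid gate. A hashtag stands for 1 sample, and the letters in the hashtag sheet only name samples and pair none. Hashtags that do not overlap between groups, lines or days were counted for the members alone, so no share of all genes stands beside those counts. The fits were run on simulated data with 200 changed genes. Of these, 91% were recovered for tumour against day 0 (12841 genes), 92% for day 16 against day 6 (13557) and 93.5% for the myeloid gate (7480). False calls were 4.21%, 4.66% and 5.08% of all calls in that order. Simulated hashtags shared 1 mean profile and 1 dispersion, with no line, library or day effects and changes of 1 on the log2 scale. Lines nested in a group were thus not simulated, and the simulation cannot show how the calls hold across lines. Shares of cells were thinned to 2000 UMIs per cell. Gene positions are from GENCODE for GRCm38, and promoter sequences from RefSeq (GRCm38.p6). Alternatives covered tools, scaling, filters, gates, hashtag calls, library kinds and each line left out.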

Additional observations from a re-analysis of the deposited data

Results flagged for a closer look

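Etv4 differed between KO and control lines in its change from day 0 to tumours by 0.373 on the log2 scale, a difference whose call was lost without line 15, 18 or 19.

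In the change from day 6 to day 16, 6 members differed between KO and control lines by edgeR's test of the difference. That test was added after the levels had been seen, and it called 14.2% of all 14581 genes. The log2 differences were -2.15 for Spry1, -1.586 for Il17rd and -0.616 for Dusp6, and 0.61 for Spry4, 0.525 for Dusp4 and 0.405 for Etv4. Spry1 was called with each line left out in turn, and without line 18 it was the only member called. The Il17rd difference without line 18 was -0.72 with an edgeR adjusted p of 0.283.

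The WT hashtags, named in the hashtag sheet but in no sample label, entered no comparison. Their lowest tumour was at 16.26 CPM for Spry2, against 12.05 in the highest control tumour, and at 40.26 CPM for Spred1, against 40.24. The Spred1 gap is smaller than the SD of the 3 WT tumours (1.49 CPM), and line 18 tumours were at a mean of 37.5 CPM in the mixed libraries and 31.8 in their own. Each WT day is a single hashtag of 1 mixed library, so neither was tested.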

How the results depend on the processing

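No paired analysis was possible because the groups are separate lines whose labels share no replicate number; the fits on the mixed libraries alone had the library as a term. Of the alternatives for single members and for counts of calls by line, 1421 were unchanged, 46 changed sign, 40 lost and 20 gained a call, and 21 moved. Unchanged meant the same direction and side of the threshold for a tested member. For a count, and for the untested KO against control values of line cells, it meant a shift within a set limit. The line-by-day cell means, leaving out lines in the KO minus control difference from day 0 and in the unfiltered myeloid fit, and the whole KO minus control difference from day 6 to 16 were chosen after seeing the data. Few day 0 hashtags (1 in line 18) limit the day 0 contrasts, and low UMI counts limit Il17rd, Spry2 and Spry4 outside line cells.

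For day 16 against day 6, 2 members were called, 1 to 3 with a line left out and 0 in the mixed libraries alone (19 genes). For the KO minus control difference from day 0, 1 member was called, 0 without a filter, 2 under the other hashtag call, 3 with line-by-day cell means and 0 to 2 with a line left out (2027 to 4107 genes, the lowest without line 15). For that from day 6 to 16, the other hashtag call gave 1203 genes, and leaving out a line 1 to 6 members and 649 to 1752 genes. In line cells 7 members were above 0, and 4 to 8 with a line left out. In the myeloid gate 1 member was called, 3 without a filter, 2 under the other hashtag call and 2 with 1 sum per line; 631 genes were called in mixed libraries, 1258 with 1 sum per line and 1275 to 3216 with a line left out. The line 24 share with an Il17rd UMI was 2.46% at 1000 UMIs.

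Leaving out each line in turn changed the sign of some values, given as ranges; here and below the cause was not tested. Tumour against day 0: Spry1 -0.281 to 0.104. Day 16 against day 6: Il17rd -0.088 to 0.639, Spry2 -0.142 to 0.112, Spry4 -0.006 to 0.191, Etv4 -0.093 to 0.035, Etv5 -0.055 to 0.063, and Etv5 in line 19 -0.006 to 0.015. KO minus control difference from day 0: Dusp4 -0.794 to 0.025 and Spry2 -0.326 to 0.355. KO against control in line cells: Dusp4 -0.531 to 0.275, Dusp6 -0.087 to 0.975, Spry2 -0.194 to 1.243 and Spred1 -0.09 to 0.64. Myeloid gate: Etv4 -0.383 to 0.174 and Etv5 -0.338 to 0.142.

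Other settings changed the sign of these. Day 16 against day 6: Spry2 0.012 and Etv5 -0.021 (stricter gate), Etv5 -0.042 (single-line libraries), Il17rd -0.001 and Etv4 0.033 (mixed). KO minus control difference from day 0: Spry2 -0.172 (other hashtag call), -0.015 (looser gate) and -0.009 (cell means). By line from day 0, Spry4 in line 19 was -0.075 (stricter gate). By line from day 6 to 16, Etv5 in line 19 was -0.003 (DESeq2), -0.004 (DESeq2 size factors) and -0.011 (stricter gate), Etv5 in line 15 -0.082 (other hashtag call) and -0.012 (stricter gate), and Spry2 in line 15 -0.001 (looser gate). Spry2 was -0.034 in line 18 (other hashtag call), and in line 24 -0.134 (other hashtag call), -0.009 (stricter gate) and -0.051 (looser gate). Il17rd in line 24 was -0.089 (stricter gate) and -0.001 (looser gate). In line cells Spred1 was -0.06 (mixed). Myeloid gate: Spry1 0.022 and Etv5 0.047 (other hashtag call), Dusp6 0.02, Etv4 0.397 and Etv5 0.013 (mixed).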
